A study of Mus musculus with 8 samples.

Results

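The antioxidant genes of the mouse airway were examined in distal trachea and carina, the lowest stretch of the windpipe and its fork into the main bronchi, of old and young mice. The set held 71 of the 18172 genes with a named probe set: the glutathione transferases, glutathione peroxidases, peroxiredoxins, superoxide dismutases, thioredoxin-fold proteins, glutaredoxins, sulfiredoxin, Mt1 and Mt2, together with Cat, Gclc, Gclm, Gss, Gsr, Nqo1, Hmox1, Nfe2l2 and Keap1. Genes entered the set by symbol, with earlier results of these data known. Each gene was represented by its brightest probe set, the short group of probes that reads 1 transcript, among those annotated to that gene alone. The old group was 4 female C57Bl/6 mice of 14 months, numbered 1, 2, 5 and 6, and the young group was 4 female C57Bl/6 mice of 2 months, numbered 3, 4, 7 and 8. The labels name no treatment and no engineered allele in either group. RNA of each mouse was hybridised to its own Affymetrix Mouse Genome 430 2.0 array, so each group is 4 samples of 1 animal each. The tissue was taken whole, with epithelium, cartilage, muscle, connective tissue and blood cells together. In such bulk tissue, fewer cells of a type and less RNA per cell cannot be told apart.

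Cells lining the airway meet oxygen, inhaled oxidants and peroxides made by leukocytes, and hold them down with a pair of thiol systems. In one, glutathione is built by glutamate-cysteine ligase, spent by peroxidases and transferases and restored by glutathione reductase; in the other, thioredoxin is spent by peroxiredoxins and restored by thioredoxin reductase, both drawing on NADPH. Superoxide dismutases and catalase act on superoxide and hydrogen peroxide directly, and the transcription factor Nrf2, the product of Nfe2l2, raises many of these genes when its inhibitor Keap1 is modified by electrophiles.

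The deposited signals were on a linear intensity scale with a shared trimmed mean, and the array medians lay between 150.002 and 160.82. Across probe sets, log2 signals correlated at 0.951 to 0.958 between mice of 1 age and at 0.947 to 0.952 between ages. Precision is limited by the number of arrays. The values carry no detection call, and none of the probe sets could be scored as absent. Markers of the labelled tissue were bright: Scgb1a1 of club cells averaged 28761 in old and 29858.5 in young mice, Foxj1 of ciliated cells 2500.3 in old and 2594 in young mice, and Krt5 of basal cells 2041 in old and 1645 in young mice. Summed signals of 10 fibroblast markers were 72998 to 80275 in old mice, against 92640 to 103904 in young mice, and those of 11 neutrophil markers were 3759 to 7105 in old mice, against 1599.9 to 2147 in young mice. Among the fibroblast markers Col1a2, a collagen chain, was lower in old mice (adjusted p = 0.0470 in limma), and among the neutrophil markers Cd177 was higher (adjusted p = 0.0164).

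No antioxidant gene passed an adjusted p of 0.05 in either direction in limma, a linear model that shares the estimate of variance between genes (n = 4 old and 4 young mice), whereas 93 of 18172 genes did, or 0.512%. At an unadjusted p under 0.05, 10 of the 71 genes passed, 5 higher and 5 lower in old mice. That is 14.1% of the set, against 14.5% of all genes, of which 7.23% were higher and 7.29% lower. An ordinary test without shared variance gave 4 higher and 7 lower at that threshold and again none after adjustment. Under that test 7.12% of all genes were higher and 7.57% lower. The fold threshold of 2 combined with an unadjusted p under 0.05 was met by 293 genes, or 1.61%, and by no antioxidant gene. All 4 old mice lay above all 4 young mice for 2 antioxidant genes and below them for 7. Together these are 12.7% of the set, against 10.1% of all genes (4.95% higher and 5.11% lower).

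The intervals of the fold changes put a bound on the change of most antioxidant genes. Of the 71 log2 fold changes of old over young mice, 35 were positive, or 49.3%, against 48.9% of all genes. The 71 ran between -0.68 and 0.47, and those of all genes between -3.05 and 4.63. A range widens with the number of genes and with dim signals, so the narrower range of the set does not measure a smaller change. The median was -0.0064 in the set and -0.0050 over all genes, and the median absolute log2 fold change was 0.107 in the set and 0.148 over all genes. For 56 of the 71 genes the 95% interval of the change lay wholly within 1.5-fold in either direction, as it did for 58.8% of all genes, and for 66 it lay within 2-fold, as for 79.0% of all genes. The 5 whose intervals reached past 2-fold were Gpx5, Gpx6, Gstt4, Txndc2 and Mt2. The first 4 of these, with Txndc8, had geometric mean signals under 64, where 20.3% of all genes lay. The antioxidant genes were bright as a set, with 59 of 71 above the median signal of all genes, and brighter genes are measured more precisely: the median SD of log2 signal within an age was 0.147 in the set, 0.196 over all genes and 0.127 over the genes above the median signal.

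**Figure D1:**
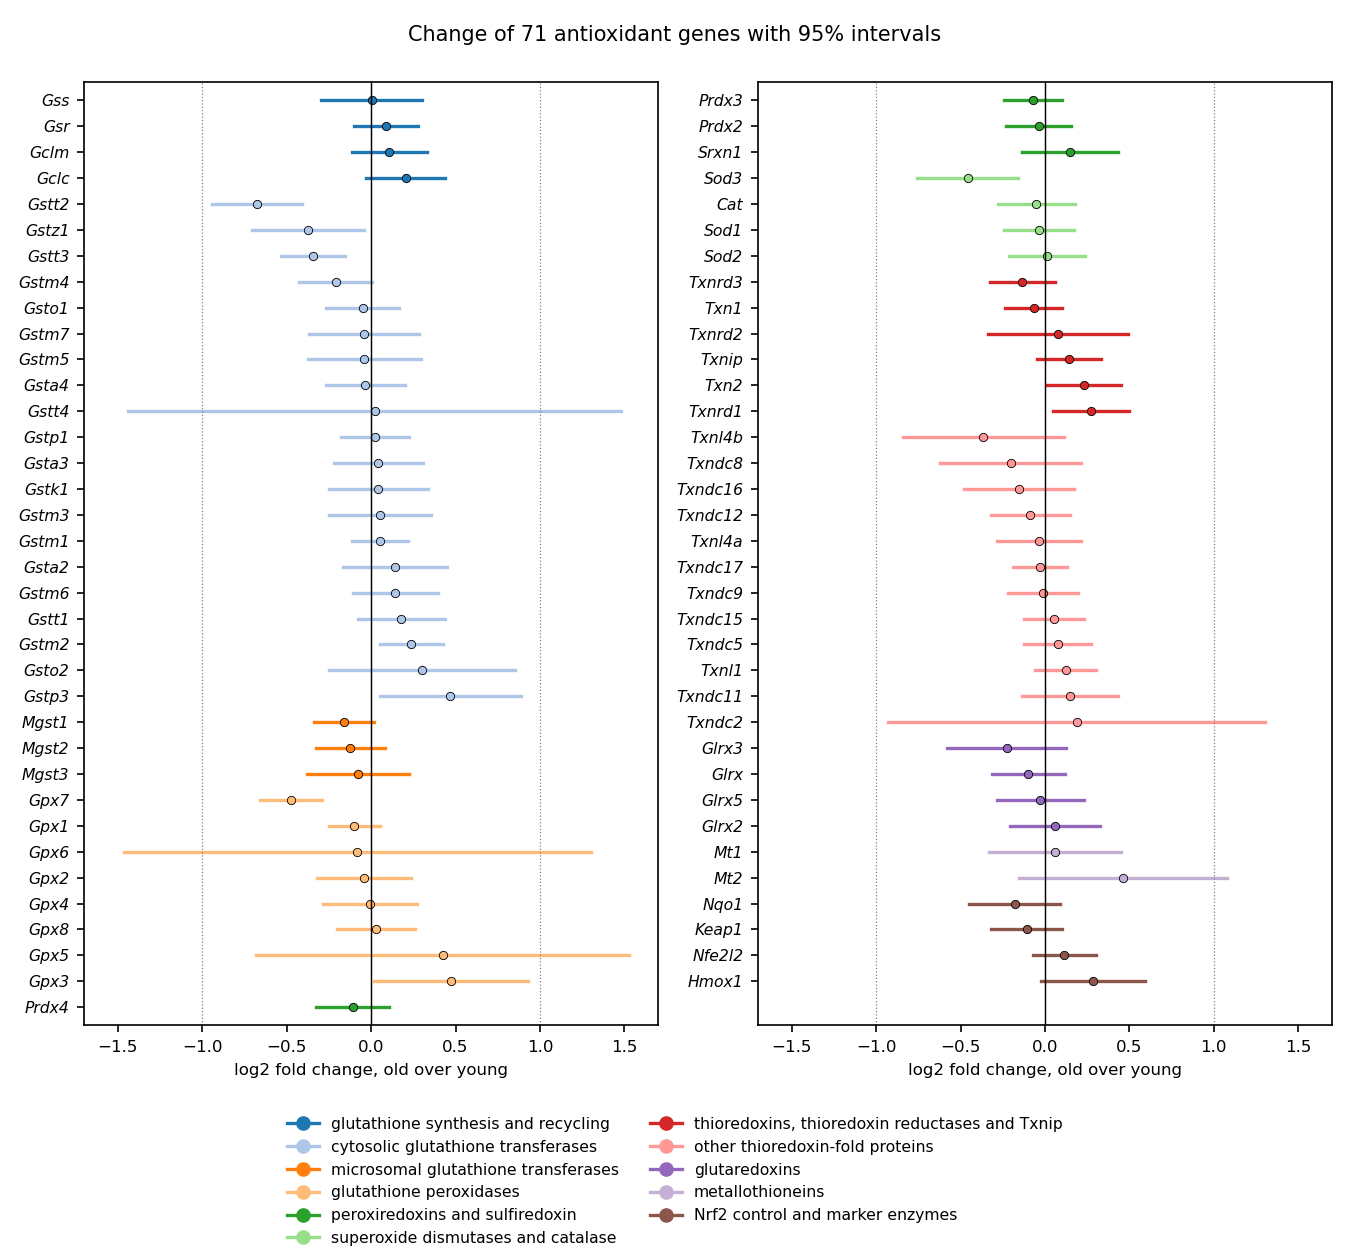
Log2 fold change of old over young mice for each of the 71 antioxidant genes (horizontal axis, points) with its 95% interval from limma (bars), grouped by family; dotted lines mark a change of 2-fold. The points lie between -0.68 and 0.47, and only the intervals of Gpx5, Gpx6, Gstt4, Txndc2 and Mt2 reach past a dotted line.

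**Figure D2:**
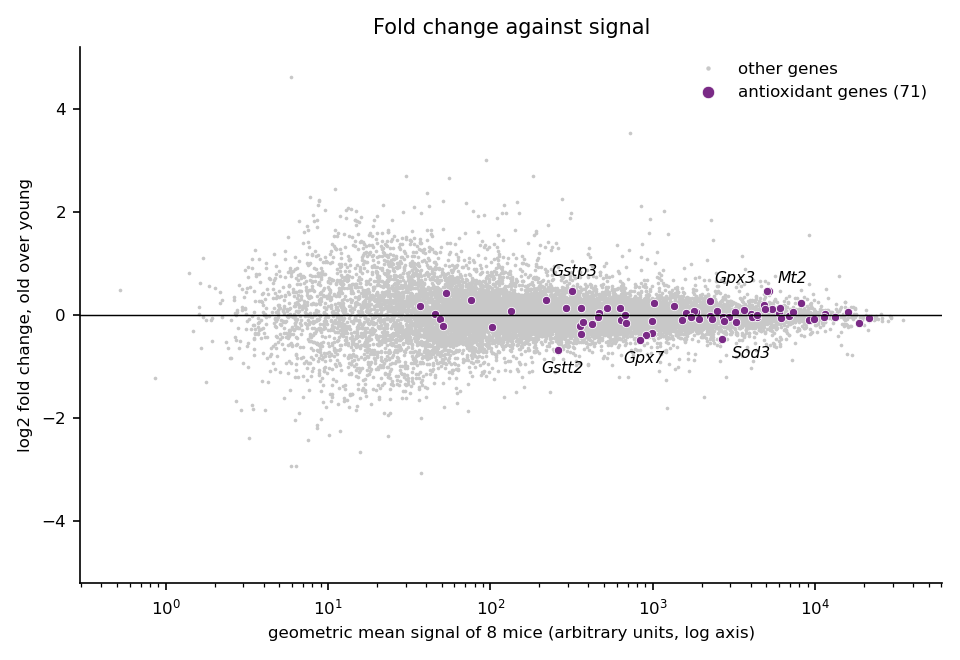
Log2 fold change of old over young mice (vertical axis) against geometric mean signal over the 8 mice (horizontal axis, log scale), with the other genes in grey and the 71 antioxidant genes in purple. The antioxidant genes lie mostly at bright signals and near a log2 fold change of 0, and the scatter of all genes widens toward dim signals.

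The glutathione peroxidase family, whose best-known members remove hydrogen and lipid peroxides, includes Gpx7, the antioxidant gene with the smallest p. Gpx7, which works in the endoplasmic reticulum, where disulfide bonds are made, had signals of 685, 692, 759.6 and 702 in old mice 1, 2, 5 and 6, against 1024, 1005, 1042 and 881 in young mice 3, 4, 7 and 8. Old and young mice did not overlap, and young mouse 8 came nearest to the old mice. Its mean was 709.5 ± 34.1 in old and 988 ± 73.1 in young mice (SD, n = 4 each), a log2 fold change of -0.48 (standard error, SE, 0.079, 95% interval -0.66 to -0.29, adjusted p = 0.0603). Gpx7 passed an adjusted p of 0.05 under floors of 32 and 64 on the signal, an offset of 50, the brighter part of genes alone (above the median signal), and a variance prior that is trended and robust. Gpx3, the secreted peroxidase of plasma and extracellular fluid, read 5984, 5814, 5764 and 6971 in old mice in the same order of mice, against 3127, 3980.1, 5134 and 5910.4 in young mice. Young mouse 8 lay among the old mice and young mice 3 and 4 far below them. Gpx3 had a log2 fold change of 0.47 (SE 0.20, adjusted p = 0.329), and it was 0.31 without young mouse 3. Within mice numbered 1 to 4 it was 0.74, and within mice numbered 5 to 8 it was 0.20.

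Gpx1, the widespread cytosolic peroxidase, gave 8186, 8881, 9100.3 and 9137 in old mice, against 9282, 9685, 9174 and 9665 in young mice. The ages did not overlap, but only narrowly, with 9137 in the highest old mouse against 9174 in the lowest young mouse. It had a log2 fold change of -0.10 (95% interval -0.25 to 0.05, adjusted p = 0.539). Gpx2, a peroxidase of epithelia and a known Nrf2 target, read 2789, 2999, 3414 and 2529 in old mice, against 3532, 2818, 2809.9 and 2899 in young mice. The ages overlapped throughout, with a log2 fold change of -0.04 (95% interval -0.32 to 0.24, adjusted p = 0.913). Of the other 4 peroxidases, Gpx4, which reduces lipid hydroperoxides in membranes, and Gpx8, of the endoplasmic reticulum membrane, had log2 fold changes of -0.01 and 0.03. Gpx5, known from the epididymis, and Gpx6, known from the olfactory epithelium, were dim, with signals of 15.6 to 112 in old mice and 25.3 to 83.6 in young mice over both genes.

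Sod3, the superoxide dismutase that is secreted and held in the extracellular matrix, read 2692, 1916, 2572 and 2010.4 in old mice, against 3322, 3186, 3109.7 and 2882 in young mice. Every old mouse lay below every young mouse, with old mouse 1 closest to the young mice. The mean was 2298 ± 391 in old and 3125 ± 184 in young mice (SD, n = 4 each), a log2 fold change of -0.46 (SE 0.13, 95% interval -0.76 to -0.16, adjusted p = 0.171). It passed an adjusted p of 0.05 only within the brighter part of genes and with the trended and robust prior, among the settings tried. A second, dimmer Sod3 probe set averaged 919.7 in old and 1118 in young mice, with a log2 fold change of -0.30 and overlapping ages. Markers of connective tissue and smooth muscle had mostly negative log2 fold changes beside those of Gpx7 and Sod3. Of 10 fibroblast markers 9 had a negative log2 fold change (6 at an unadjusted p under 0.05, where 7.29% of all genes were lower), with Col1a1 and Mfap4 at means of 1233 and 798 in old mice, against 3738 and 1882 in young mice. Of 10 smooth muscle markers all had a negative one (5 at an unadjusted p under 0.05), with summed signals of 91041 to 103659 in old mice, against 104265 to 118805 in young mice. Of either list, the lowest mean in old mice was that of Mfap4, and the part of these cell types in the Gpx7 and Sod3 values was not tested.

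The other enzymes that act on superoxide and hydrogen peroxide directly overlapped between the ages. Sod1, the cytosolic copper-zinc dismutase, read 10327, 11122, 11834 and 11634 in old mice, against 11058, 10311, 12685 and 12057 in young mice. Cat, the catalase of peroxisomes, read 5910.1, 6714, 5466 and 6168 in old mice, against 5849, 5707, 6946 and 6643 in young mice. Both sets of signals were interleaved by age, with log2 fold changes of -0.04 for Sod1 (95% interval -0.24 to 0.17, adjusted p = 0.896) and -0.05 for Cat (95% interval -0.28 to 0.18, adjusted p = 0.861). Sod2, the mitochondrial manganese dismutase, had a log2 fold change of 0.01. Its dimmer probe sets were at -0.06, 0.19 and 0.28. The last of these averaged 828 in old and 683 in young mice with overlapping ages (adjusted p = 0.409 over all probe sets in limma).

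Glutathione transferases join glutathione to electrophiles or use it as a reducing agent, and 20 were measured outside the microsomal family, all cytosolic classes but for Gstk1 of mitochondria and peroxisomes. The theta class held the lowest log2 fold change of the whole set. Gstt2 read 178, 221, 192 and 237 in old mice, against 312, 347, 359.7 and 301 in young mice. All old mice lay well below all young mice, and the mean was 207 ± 27.0 in old and 329.9 ± 27.8 in young mice (SD, n = 4 each). Its log2 fold change was -0.68 (SE 0.11, 95% interval -0.94 to -0.41, adjusted p = 0.0603), and it passed an adjusted p of 0.05 with floors of 32 and 64, an offset of 50 and the trended and robust prior. Gstt3 read 800.4, 919, 868 and 944 in old mice, against 1133, 1035, 1124 and 1195 in young mice. Again the ages did not overlap, and its change on the log2 scale was -0.35 (SE 0.081, 95% interval -0.54 to -0.16, adjusted p = 0.119). It passed in the brighter part of genes and with the trended and robust prior. In the RefSeq gene order of GRCm38.p6 the 4 theta genes lie side by side on chromosome 10 as Gstt3, Gstt1, Gstt4 and Gstt2, so the pair with negative changes stands at the ends of the row. Gstt1 between them had a log2 fold change of 0.18 (95% interval -0.08 to 0.43), with 1258 to 1714 in old mice and 1189.6 to 1407 in young mice. Gstt4 was dim, at 38.1 to 59.1 in old mice and 10.9 to 85.6 in young mice, with an interval of -1.44 to 1.48.

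Gstz1, which isomerises maleylacetoacetate in tyrosine breakdown, read 754, 958, 632 and 887 in old mice, against 989, 982, 1185 and 995 in young mice. The ages did not overlap, although old mouse 2 lay just below the lowest young mouse, and the log2 fold change was -0.38 (SE 0.14, adjusted p = 0.288). Gstm2 of the mu class, which conjugates a wide range of electrophiles, had the opposite sign, with 9006, 9191, 8718 and 8685 in old mice, against 8019.7, 6933, 7083 and 8258 in young mice. The lowest old mouse was above the highest young mouse, and Gstm2 had a log2 fold change of 0.24 (SE 0.080, 95% interval 0.05 to 0.42, adjusted p = 0.238). The 7 measured mu genes lie side by side on chromosome 3, where the neighbours of Gstm2 had log2 fold changes of 0.05 for both Gstm3 and Gstm1. Gstm4 at the end of that row read 281 to 364 in old mice and 366 to 395 in young mice, with a log2 fold change of -0.21 (95% interval -0.43 to 0.01, adjusted p = 0.361).

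Gstp3 of the pi class read 398, 329.7, 401 and 379 in old mice, against 315, 187, 298 and 309 in young mice. The ages did not overlap, and young mouse 4 stood far below the other young mice. The log2 fold change was 0.47 (SE 0.18, adjusted p = 0.288), and 0.29 without young mouse 4. Gstp1 of the same class had a log2 fold change of 0.02 (95% interval -0.18 to 0.22). Gsto1 of the omega class, which also reduces dehydroascorbate, read 19397, 19739.5, 22904 and 22069 in old mice, against 23044, 21950.3, 19164 and 22994 in young mice. Those signals overlapped, at a log2 fold change of -0.05 (95% interval -0.27 to 0.17, adjusted p = 0.853). The 14 transferases of these classes not given by mouse had log2 fold changes between -0.21 for Gstm4 and 0.30 for Gsto2. Transferases of 1 class share long stretches of sequence, and probes made for one may also bind another.

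The 3 microsomal transferases, membrane proteins that act on lipid-soluble substrates and peroxides, all had negative log2 fold changes. Mgst1 read 16110.3, 17387, 18230.2 and 18904 in old mice, against 19990.2, 18512, 19921 and 20467 in young mice. Only old mouse 6 and young mouse 4 crossed, and the log2 fold change was -0.16 (SE 0.075, 95% interval -0.34 to 0.01, adjusted p = 0.381). Mgst2 and Mgst3 were at -0.12 and -0.08. A dim second probe set of Mgst3 read 4.77 to 60.2 over the 8 mice and had a log2 fold change of 1.16 with an SE of 0.82.

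Cytosolic Txnrd1 and mitochondrial Txn2, from different compartments, were 2 of the 5 genes that were higher at an unadjusted p under 0.05. Txnrd1, the cytosolic selenoenzyme that passes electrons from NADPH to thioredoxin, read 2440.2, 2239, 2724 and 2508 in old mice, against 2248, 1882, 1890.3 and 2193 in young mice. Old mouse 2 lay just below young mouse 3, and the other old mice were above all young mice. The mean was 2478 ± 199.7 in old and 2053 ± 194 in young mice (SD, n = 4 each), a log2 fold change of 0.27 (SE 0.096, 95% interval 0.05 to 0.50, adjusted p = 0.260). A dimmer Txnrd1 probe set, chosen after its values were seen, averaged 172.6 in old and 115.8 in young mice without overlap, with a log2 fold change of 0.56 (adjusted p = 0.167 over all probe sets in limma). The dimmest Txnrd1 probe set averaged 72.1 in old and 67.0 in young mice with overlapping ages, at a log2 fold change of 0.14 (SE 0.23). Txn2, the mitochondrial thioredoxin, read 1149.5, 1208, 929.8 and 1124 in old mice, against 969, 901, 966 and 912 in young mice. Old mouse 5 fell within the young range and the other old mice above it, with a log2 fold change of 0.23 (SE 0.095, adjusted p = 0.321).

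Txn1, the cytosolic thioredoxin, read 9559, 9718, 9625 and 9765 in old mice, against 10015, 9445, 11280.5 and 9860.2 in young mice. The old mice spanned a narrow range inside that of the young mice, and the log2 fold change was -0.07 (95% interval -0.24 to 0.10, adjusted p = 0.734). A dim second probe set of Txn1 had a log2 fold change of 0.50 with an SE of 0.32. Txnip, which binds and inhibits thioredoxin and follows glucose, read 5761, 6241, 6888 and 6830.4 in old mice, against 5651, 5657, 5761 and 6182 in young mice. Old mouse 1 lay at the level of young mouse 7, and the log2 fold change was 0.14 (95% interval -0.05 to 0.33, adjusted p = 0.471). Txnrd3 and the mitochondrial Txnrd2 were at -0.13 and 0.08. Their dimmer probe sets gave -0.18 and -0.41 for Txnrd3 and values between -0.23 and -0.13 for Txnrd2.

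**Figure D3:**
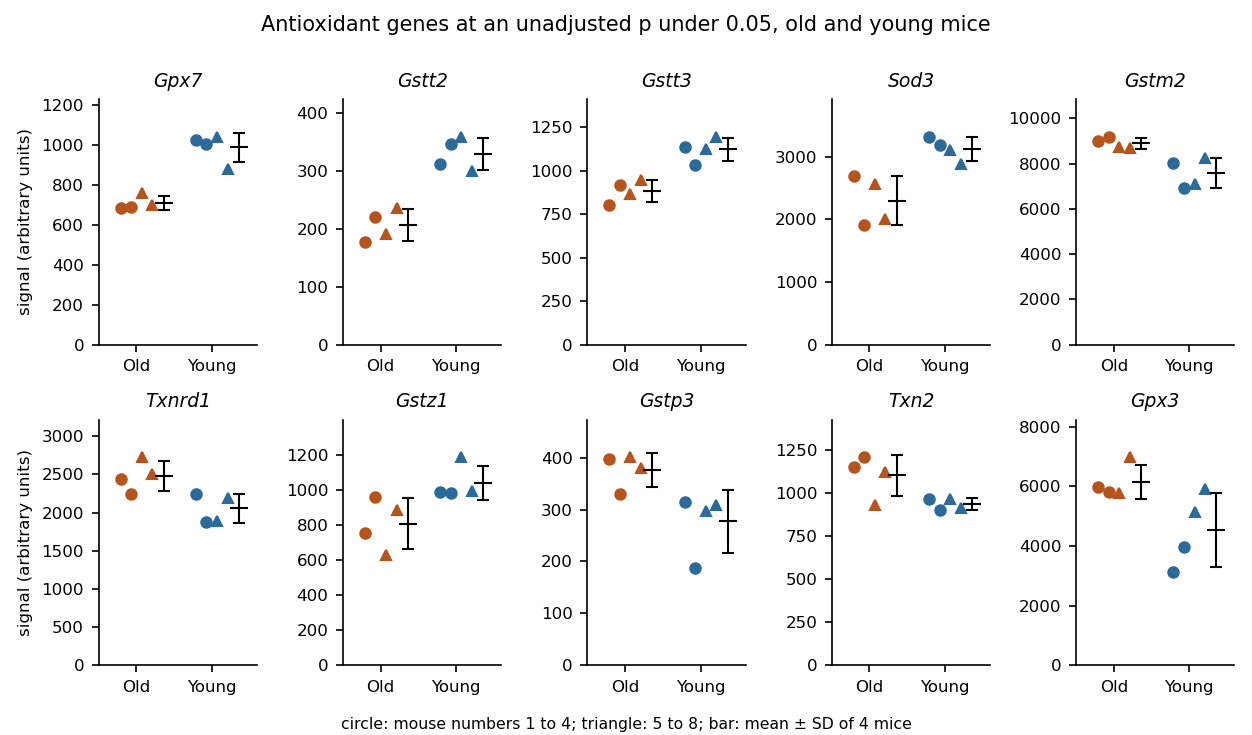
Signal of each mouse (vertical axes, linear) for the 10 antioxidant genes at an unadjusted p under 0.05, with old mice left and young mice right in each panel; circles are mice numbered 1 to 4, triangles mice numbered 5 to 8, and bars the mean and SD of 4 mice. The old mice lie below the young mice without overlap for Gpx7, Gstt2, Gstt3, Sod3 and Gstz1 and above them without overlap for Gstm2 and Gstp3, while Txnrd1, Txn2 and Gpx3 overlap.

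Peroxiredoxins, which take electrons from thioredoxin to reduce hydrogen peroxide, and sulfiredoxin, which repairs them after overoxidation, were measured through 4 genes. Prdx2 read 3721, 4101, 3848 and 4574 in old mice, against 4068, 4071, 4368 and 4116 in young mice. The old mice spread on both sides of the young mice, with a log2 fold change of -0.04 (95% interval -0.23 to 0.15, adjusted p = 0.880). Prdx3 of mitochondria, Prdx4 of the endoplasmic reticulum and Srxn1 were at -0.07, -0.11 and 0.15. Prdx1 shares all its 5 probe sets with a second annotated symbol, and Gsta1 its only one, so neither entered the set. Prdx5 and Prdx6 were not analysed here.

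Among the glutaredoxins, which undo glutathione-protein disulfides, Glrx5, needed for mitochondrial iron-sulfur clusters, read 2511, 2476, 2666 and 3125 in old mice, against 2917, 2335, 2922 and 2801 in young mice. Its ages were interleaved, with a log2 fold change of -0.03 (95% interval -0.28 to 0.23, adjusted p = 0.944), and Glrx, Glrx2 and Glrx3 were at -0.10, 0.06 and -0.23. Glrx3 was read from 1 dim probe set (95% interval -0.58 to 0.13), since its other 4 share a second annotated symbol. Among the 12 other thioredoxin-fold proteins, Txnl1, a thioredoxin bound to the proteasome, read 5234, 5577, 4901 and 4867 in old mice, against 4908, 4449, 4542 and 4998 in young mice. Old mice 1 and 2 stood above all young mice and old mice 5 and 6 among them, at a log2 fold change of 0.12 (95% interval -0.06 to 0.30, adjusted p = 0.519). The remaining 11 had log2 fold changes between -0.37 for Txnl4b and 0.19 for Txndc2. They include the protein disulfide isomerase relatives Txndc5 at 0.07 and Txndc12 at -0.09 and the spliceosomal Txnl4a at -0.04. The testis genes Txndc2 and Txndc8 were dim, at 26.3 to 52.8 in old mice and 13 to 64.4 in young mice over both genes.

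The 4 genes of glutathione synthesis and recycling all had positive log2 fold changes, none of them past an unadjusted p of 0.05. Gclc, the catalytic subunit of glutamate-cysteine ligase and the rate-limiting enzyme of glutathione synthesis, read 5314, 4618, 5772 and 5134 in old mice, against 4617, 3955, 4551 and 4979 in young mice. Old mouse 2 lay at the level of young mouse 3 and below young mouse 8, and the other old mice above all young mice. Gclc had a log2 fold change of 0.20 (SE 0.10, 95% interval -0.03 to 0.44, adjusted p = 0.409), and a second, dimmer probe set gave 0.13. Gclm, the modifier subunit of the same ligase, read 3539, 3614, 4154 and 3923 in old mice, against 3561, 3062, 3767 and 3767 in young mice. The ages overlapped, with a log2 fold change of 0.11 (95% interval -0.12 to 0.33, adjusted p = 0.667), and 0.04 without young mouse 4. A second, dimmer Gclm probe set gave -0.03. Gsr, the reductase that restores glutathione, was at 0.09, and Gss, which completes glutathione synthesis, at 0.0033. A dimmer probe set of each gave 0.26 for Gsr and -0.12 for Gss.

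Nfe2l2, which encodes Nrf2, read 5376, 5743, 5812 and 5608 in old mice, against 4733, 4952, 5734 and 5439 in young mice. Young mice 3 and 4 lay below all old mice and young mice 7 and 8 among them, and the log2 fold change was 0.12 (95% interval -0.07 to 0.30, adjusted p = 0.569). Keap1, the adaptor that hands Nrf2 to a ubiquitin ligase, read 1052, 920.0, 995 and 853 in old mice, against 1103, 1045, 939.9 and 1021 in young mice. These overlapped as well, at -0.11 (95% interval -0.32 to 0.10, adjusted p = 0.644). With all probe sets of a gene averaged in place of the brightest alone, the log2 fold change had the opposite sign for both genes, -0.07 for Nfe2l2 and 0.06 for Keap1. That average gives equal weight to a much dimmer probe set of each gene. The dimmer one of Nfe2l2 averaged 174 in old and 209 in young mice, at -0.25 (SE 0.25). That of Keap1 averaged 220 in old and 188 in young mice, at 0.22 (SE 0.13).

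Nqo1, a quinone reductase widely used as a readout of Nrf2, read 405, 402, 396 and 374 in old mice, against 399, 422, 420.3 and 563 in young mice. Young mouse 8 stood well above the other 7 mice, whose ages overlapped, and the log2 fold change was -0.18 (95% interval -0.45 to 0.09, adjusted p = 0.528), and -0.07 without young mouse 8. Hmox1, the inducible haem oxygenase, read 263, 213, 295 and 211 in old mice, against 197, 217, 209 and 177 in young mice. Old mice 1 and 5 lay above all young mice and old mice 2 and 6 among them, with a log2 fold change of 0.29 (SE 0.13, 95% interval -0.02 to 0.59, adjusted p = 0.377). The intervals of Nqo1, Gclm and Gpx2 each end below a rise of 1.5-fold in old mice, whereas that of Hmox1 reaches beyond it.

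The promoter letters of these genes are shown because many Nrf2 targets carry an antioxidant response element. All 71 genes matched RefSeq by gene identifier, and 63 had a promoter entry of 250 bases before to 50 after a start site in the RefSeq annotation of GRCm38.p6. The other 8 were Gsta4, Gstt2, Gclc, Gsr, Hmox1, Txnl1, Txnl4a and Sod3. The start site is that of the entry and need not be the outer end of the gene. The element was searched as TGACNNNGC on both strands, whose letters can overlap those of an AP-1 site, TGACTCA. It was found for 13 of 63 antioxidant genes, or 20.6%, against 14.0% of 27025 genes with an entry. The stretches below, read 5′ to 3′ on the strand of the gene, hold the matches of 5 genes described by mouse, with the match in capitals. They lie at chr3:122245407-122245447 (+) for Gclm, chr6:138140455-138140495 (+) for Mgst1, chr2:75704879-75704913 (-) for Nfe2l2, chr16:90220690-90220730 (+) for Sod1 and chr10:82859098-82859138 (+) for Txnrd1.
Gclm: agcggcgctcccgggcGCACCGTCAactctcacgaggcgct
Mgst1: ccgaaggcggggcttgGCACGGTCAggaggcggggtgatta
Nfe2l2: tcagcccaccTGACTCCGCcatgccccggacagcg
Sod1: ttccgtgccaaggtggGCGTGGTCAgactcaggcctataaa
Txnrd1: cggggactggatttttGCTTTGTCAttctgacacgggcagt
The matches begin 134, 56, 240, 56 and 92 bases before the start site of the entry in that order. For Gclm and Txnrd1 that site lies inside the RefSeq gene, which begins at chr3:122245487 for Gclm and chr10:82833951 for Txnrd1. The Txnrd1 stretch is thus itself within the gene. In Gclm, Mgst1, Sod1 and Txnrd1 the motif is on the opposite strand, so the capitals read as its reverse complement. Of the 10 genes at an unadjusted p under 0.05, Gstt2 and Sod3 had no entry and were not searched. Among the rest, only the entry of Txnrd1 held a match, and bases outside the entries were not searched. The log2 fold changes of the 5 genes shown ran from -0.16 for Mgst1 to 0.27 for Txnrd1. A match of letters is a description and not a bound site.

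Metallothioneins bind zinc and copper through cysteines, scavenge radicals and are induced by metals, glucocorticoids and oxidants. Mt2 read 7969.5, 7592, 4742 and 4319 in old mice, against 3314, 3753, 4739 and 5837 in young mice. Old mice 1 and 2 lay above every young mouse and young mice 3 and 4 below every old mouse, while the mice numbered 5 to 8 overlapped. The log2 fold change was 0.46 (SE 0.26, 95% interval -0.15 to 1.08, adjusted p = 0.474), and it was 1.14 within mice numbered 1 to 4 and -0.22 within mice numbered 5 to 8. Mt1 read 7412, 8026, 6700.1 and 7755 in old mice, against 5844, 5811, 8788 and 8760.5 in young mice. Here the old mice lay between the pair of young mice numbered 3 and 4 and the pair numbered 7 and 8. Mt1 had a log2 fold change of 0.06 (95% interval -0.33 to 0.45, adjusted p = 0.909), with 0.40 within numbers 1 to 4 and -0.28 within numbers 5 to 8. The labels do not say what the numbers mark. Of the 71 genes, 43 had the same sign in both sets of numbers, or 60.6%, against 57.3% of all genes.

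**Figure D4:**
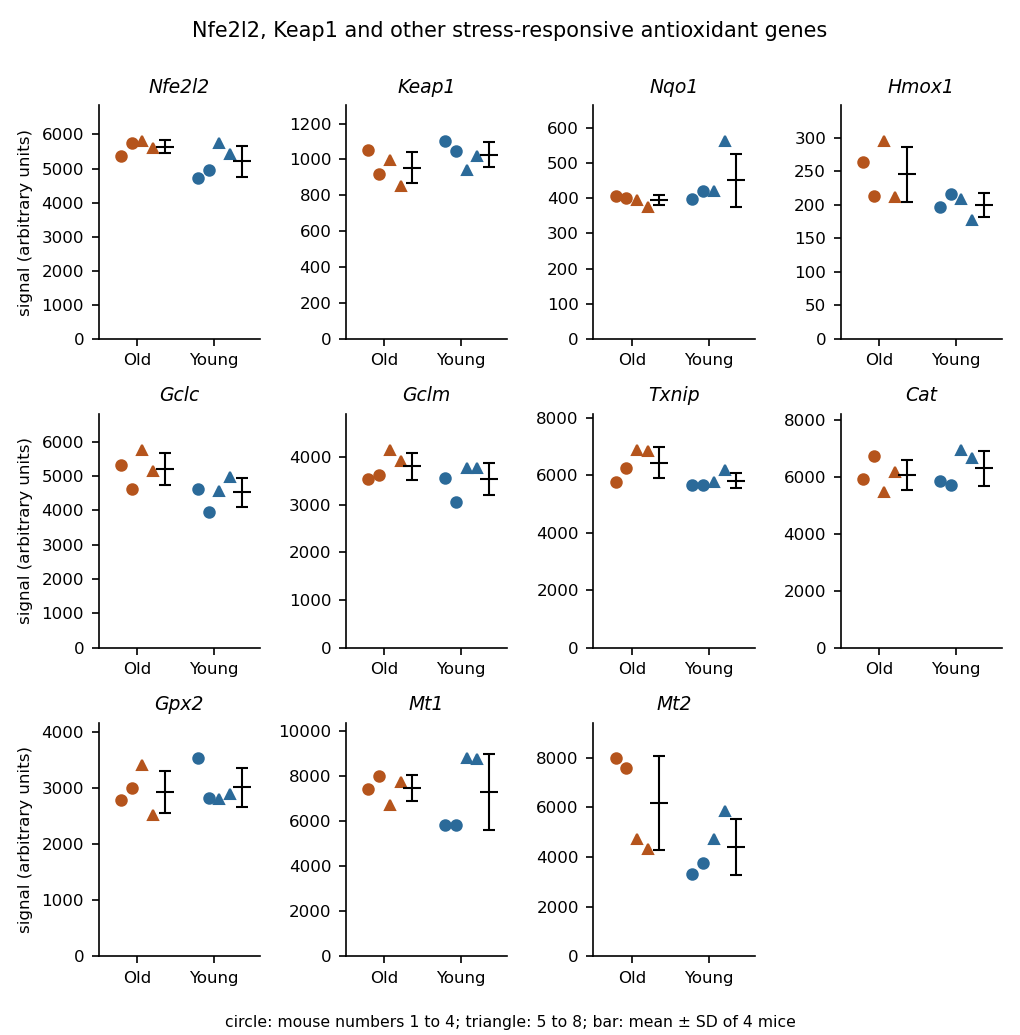
Signal of each mouse (vertical axes, linear) for Nfe2l2, Keap1 and 9 further stress-responsive antioxidant genes, with old mice left and young mice right in each panel; circles are mice numbered 1 to 4, triangles mice numbered 5 to 8, and bars the mean and SD of 4 mice. The ages overlap in every panel, and for Mt2 the circles are far apart between the ages while the triangles overlap.

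The metal response element, read by the zinc-sensing factor MTF1, was searched as TGCACNC or TGCGCNC on both strands. It was found for 21 of 63 antioxidant genes, or 33.3%, against 28.2% of all genes with an entry. The stretches of Mt1 and Mt2 are shown as the metal-responsive pair and that of Gpx7 as the gene with the smallest p, again 5′ to 3′ on the strand of the gene, with every match of either element in capitals. They lie at chr8:94179050-94179088 (+) for Mt1, chr8:94172368-94172617 (+) for Mt2 and chr4:108406901-108406939 (-) for Gpx7.
Mt1: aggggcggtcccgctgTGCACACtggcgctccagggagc
Mt2: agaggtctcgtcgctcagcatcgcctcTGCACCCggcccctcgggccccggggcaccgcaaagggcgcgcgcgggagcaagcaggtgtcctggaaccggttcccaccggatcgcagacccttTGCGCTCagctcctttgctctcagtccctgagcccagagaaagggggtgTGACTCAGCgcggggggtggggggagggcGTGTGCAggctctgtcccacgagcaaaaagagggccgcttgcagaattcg
Gpx7: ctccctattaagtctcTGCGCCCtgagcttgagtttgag
The metal response letters begin 23 bases before the start site in the Mt1 stretch, 223, 128 and 50 in that of Mt2, and 210 in that of Gpx7. The stretches hold only bases before the start site of the entry. For Mt1 that site lies inside the RefSeq gene, which begins at chr8:94178883, so the Mt1 stretch is within the gene. Past the start site, the searched entries held further metal response matches, at 2 and 20 bases for Mt1 and at 4 bases for Mt2. Mt2 also holds TGACTCAGC, 79 bases before the start site, in which the antioxidant response element and AP-1 letters overlap. Mt4, Mt3, Mt2 and Mt1 are neighbours in that order on chromosome 8.

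Genes that work with these enzymes were counted in 10 further lists. No gene of the 10 lists passed an adjusted p of 0.05 in limma. At an unadjusted p under 0.05, against which each list was counted, 7.23% of all genes were higher and 7.29% lower. Of 9 measured genes listed for NADPH supply, none was higher and 1 was lower at an unadjusted p under 0.05. Of these 9, 8 had a negative log2 fold change and 1 a positive one, as had 48.9% of all genes. The changes were small, with a median of -0.07 in the list. G6pdx was listed but not among those measured. The lower gene was Tkt, the transketolase of the pentose phosphate pathway, which does not itself make NADPH. Tkt read 2466, 2324, 2411 and 2437 in old mice, against 3431, 3233, 2901 and 2638 in young mice. Its ages did not overlap, at a log2 fold change of -0.33 (SE 0.094, adjusted p = 0.171). Of 12 further genes of Keap1 and Nrf2 control, none passed an unadjusted p of 0.05 in either direction, and Sqstm1, which sequesters Keap1, was at -0.09.

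Of 16 other known Nrf2 targets, 1 was higher and none lower at an unadjusted p under 0.05 (7.23% and 7.29% of all genes). Akr1b8, an aldo-keto reductase, read 2939, 2736, 3067 and 3172 in old mice, against 2126, 1893, 2299.7 and 2330.0 in young mice. No young mouse reached the lowest old mouse, at a log2 fold change of 0.46 (SE 0.091, adjusted p = 0.0850). The median of that list was -0.04. Slc7a11, the cystine carrier that feeds glutathione synthesis, was dim, at 49.8 to 104 in old mice and 11 to 67.6 in young mice. Of 18 genes of glutathione turnover and amino acid supply, 1 was higher and 1 lower: Slc3a2, the heavy chain shared by several amino acid carriers, at 0.19 (adjusted p = 0.245) and the glutamine carrier Slc1a5 at -0.31 (adjusted p = 0.219).

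Of 15 methionine sulfoxide reductases and selenoproteins, none was higher and 2 were lower at an unadjusted p under 0.05 (7.23% and 7.29% of all genes). Msrb1, a selenoenzyme that repairs oxidised methionine, read 3114, 2845, 2891 and 2667 in old mice, against 4019.6, 3936, 3552 and 3584 in young mice. The ages were apart, at a log2 fold change of -0.39 (SE 0.079, adjusted p = 0.0899), and Selenom was at -0.26 (adjusted p = 0.336).

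Among 20 genes of oxidant-producing enzymes, 5 were higher and none lower at an unadjusted p under 0.05, and 4 were higher without overlap (4.95% of all genes). Ncf1, the cytosolic organiser of the phagocyte NADPH oxidase, read 457, 509, 590.1 and 479 in old mice, against 343, 358, 339 and 344 in young mice. The old mice were all above the tightly grouped young mice, at a log2 fold change of 0.55 (SE 0.091, adjusted p = 0.0600). Its membrane subunit Cybb read 707, 525, 603 and 671 in old mice, against 437, 439, 441 and 398 in young mice, at 0.54 (SE 0.11, adjusted p = 0.0849). Cyba, the partner of Cybb, was at 0.31 (adjusted p = 0.178) and Rac2, the small GTPase of leukocytes, at 0.49 (adjusted p = 0.252), each without overlap. The remaining gene of the 5, Nos2, was dim, at means of 23.5 in old and 7.78 in young mice, and its ages overlapped. Leukocyte markers were measured beside these genes, where 7.23% of all genes were higher and 7.29% lower at an unadjusted p under 0.05. Of 11 neutrophil markers 6 were higher and 1 lower at that threshold. Of 11 macrophage markers 5 were higher and none lower, with summed signals of 32379 to 38565 in old mice and 31326 to 34036 in young mice. Of the 11 neutrophil markers, Camp, Cxcr2, Ngp and Padi4 averaged under 100 in both ages. Of 11 B and plasma cell markers 8 were higher and none lower, with all 11 log2 fold changes positive at a median of 0.87 and 6 higher without overlap. Their summed signals were 15904 to 18302 in old mice, against 13002 to 14576 in young mice, and Cd79a, a B cell receptor chain, averaged 60.8 in old and 15.9 in young mice. The part of these leukocytes in the oxidase values was not tested.

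The remaining lists had few genes at an unadjusted p under 0.05, where 7.23% of all genes were higher and 7.29% lower. Of 16 metal response genes, none was higher and 2 were lower, Mt4 and Hamp, both dim, at means of 22.3 and 79.7 in old mice, against 44.2 and 105 in young mice. Of 9 genes of haem turnover, 2 were higher, the haem-binding plasma protein Hpx at 0.35 and the haem exporter Flvcr1 at 0.35, and none was lower. Of 14 sestrins and targets of p53 or FoxO, 1 was lower, Sesn3 at -0.24 (adjusted p = 0.242), and none was higher. Of 10 glucocorticoid targets, which share a known inducer with the metallothioneins, 1 was higher, Cdkn1c at 0.54 (adjusted p = 0.108), and 1 lower, Klf9 at -0.30 (adjusted p = 0.279). The median log2 fold change of that list was 0.27. Some of its genes, named after their values were seen, were split among the young mice. Tsc22d3, a leucine zipper protein induced by glucocorticoids, read 5003, 6814, 5745 and 5345 in old mice, against 2416, 3127, 7001 and 9910.1 in young mice. Young mice 3 and 4 lay below all old mice and young mice 7 and 8 above them, as they did for Mt1. Fkbp5, a chaperone of the glucocorticoid receptor, read 1974, 2671, 2256 and 1370.1 in old mice, against 883, 971, 2229 and 3496 in young mice. Again young mice 3 and 4 were the lowest and young mouse 8 the highest. The part of this split in the metallothionein and Gpx3 values was not tested.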

How the data were processed

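RNA of the distal trachea and carina of 4 old and 4 young mice was measured on 1 Affymetrix array per mouse. The deposited values are intensity values made by the authors, 1 linear signal for each of 45101 probe sets, with a mean of 500.002 on every array when 2% of probe sets at each end are left out. The methods name robust multichip analysis in Partek, whereas linear values with a shared mean look like arrays scaled one by one, and the labels name Partek alone. How the values were made is thus unsettled, and their annotation build is not given in the sources used here.

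Signals were taken to log2 with no further normalization, floor or filter. Without 64 controls there were 45037 probe sets, of which 34945 have 1 gene symbol, 932 several and 9160 none. Each gene was read from the probe set with the highest mean log2 signal among those with its symbol alone, immunoglobulin probe sets aside. Ages were compared with limma 3.58.1 in R 4.3.3 (lmFit and eBayes, two-sided), age being the only term. The second factor of the authors' analysis of variance is not named. Benjamini-Hochberg adjustment ran over 18172 genes, and every adjusted p is from this fit unless said otherwise. Fold changes are old minus young on the log2 scale with 95% intervals.

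The 71 genes took 133 probe sets, 34 genes having 1 and 37 several. Values in every mouse are given for genes at an unadjusted p under 0.05, the brightest gene of each family, and Nfe2l2, Keap1, Gclc, Gclm, Nqo1, Hmox1, Cat, Mt1, Mt2, Txnip and Gpx2. Up to 4 genes of each pathway list with the smallest p are named, with a second probe set of an antioxidant gene where its log2 fold change differs from that of the brightest by over 0.5. Exceptions chosen after their values were seen are the dimmer probe sets of Sod2, Sod3, Gclc, Gclm, Gsr, Gss, Nfe2l2, Keap1, Txnrd1, Txnrd2 and Txnrd3. Also chosen so were the oxidant-producing enzyme gene Nos2, the glucocorticoid targets Tsc22d3 and Fkbp5, and the cell type markers named. The genes and all lists were chosen with earlier results of these data known. These steps were first tested on simulated data.

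The alternatives were quantile normalization, median centring of each array, floors of 32 and 64, an offset of 50, the genes above the median signal (the brighter part), leaving out probe sets with identifiers ending in _x_at, _s_at or _a_at, averaging all probe sets of a gene, no moderation, a trended and robust prior, array weights, a block for mouse numbers (1 to 4 or 5 to 8), and leaving out each mouse. Fold changes within numbers 1 to 4 and 5 to 8 were added after the data were seen. Python 3.11.15 with matplotlib 3.10.9 drew the figures and searched the promoters.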

Additional observations from a re-analysis of the deposited data

Results flagged for a closer look

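In 10 of 142 groups of 4 mice, 1 mouse stood far from the other 3 of its age, by a gap that took more of the range of that group than Dixon's critical value for 4 samples. Chance flags about 1 in 20 such groups.

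Among old mice, Glrx was highest in mouse 6 at 721.7, against 570.3 to 592.6 in the other old mice. Txnl4a was highest in old mouse 5 at 2001, against 1607 to 1612. Gsta3 was lowest in old mouse 1 at 5808, against 6180.0 to 6237.

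Among young mice, mouse 7 was highest for Glrx at 697, against 639 to 646 in the other young mice, for Gstz1 at 1185, against 982 to 995, and for Prdx2 at 4368, against 4068 to 4116. It was lowest for the dim Gstt4 at 10.9, against 64.2 to 85.6. Gpx2 was highest in young mouse 3 at 3532, against 2809.9 to 2899. Nqo1 was highest in young mouse 8 at 563, against 399 to 422, and without that mouse its log2 fold change of old over young mice was -0.07 in place of -0.18. Gstp3 was lowest in young mouse 4 at 187, against 298 to 315, and without that mouse its log2 fold change of old over young mice was 0.29 in place of 0.47.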

How the results depend on the processing

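Of 341 log2 fold changes of the 29 genes given by mouse under 12 alternatives, 324 kept their direction and their side of an adjusted p of 0.05, 4 reversed and 13 newly passed. With each mouse left out in turn, 221 of 232 kept both, 11 reversed and 0 newly passed. None of the genes that reversed had passed. Genes lower at an adjusted p, 0 in the report, were 2 with a floor of 32, 2 with a floor of 64 and 2 with an offset of 50 (Gpx7 and Gstt2 each time), 3 in the brighter part (Gpx7, Gstt3 and Sod3, with 59 of the 71 genes tested) and 4 with the trended and robust prior (those and Gstt2), and 0 without any 1 mouse. Under the same settings all genes called were 239, 250, 270, 445 and 468, in place of 93, and with any 1 mouse left out 8 to 42. Genes higher at an unadjusted p, 5 in the report, were 3 with median centring and 1 to 5 with a mouse left out (1 without young mouse 4, 2 without old mouse 5 or 6, 3 without old mouse 1 or young mouse 3 or 7). Of all genes, 6.89% were higher with median centring and 6.12% to 7.36% with a mouse left out (6.42% without young mouse 4). Genes lower, also 5, were 8 with a floor of 64 and 4 to 8 with a mouse left out (8 without old mouse 6). Of all genes, 8.11% were lower with that floor and 5.94% to 7.40% with a mouse left out (6.86% without old mouse 6). Genes apart without overlap and lower, 7 in the report, were 4 with median centring and 7 to 10 with a mouse left out. Those apart and higher, 2 in the report, were 1 in the brighter part, 4 with the mean of all probe sets and 2 to 4 with a mouse left out (4 without old mouse 1, old mouse 2 or young mouse 8). Ages that are apart stay apart when a mouse is left out, so these counts could then only stay or rise. The share of all genes apart was not counted under these settings. The median log2 fold change ran from -0.046 to 0.023 with a mouse left out. The log2 fold change reversed for Gsto1 with quantile normalization (0.012), and with the mean of all probe sets for Keap1 (0.058), Nfe2l2 (-0.069) and Txn1 (0.22). With a mouse left out, those that reversed ran from -0.10 to 0.012 for Glrx5, -0.12 to 0.037 for Gpx2, -0.039 to 0.16 for Mt1, -0.096 to 0.0034 for Prdx2 and -0.087 to 0.012 for Sod1. Without a change of sign, it ran from -0.23 to -0.07 for Nqo1 (nearest 0 without young mouse 8), 0.04 to 0.14 for Gclm (without young mouse 4) and -0.16 to -0.05 for Keap1 (without old mouse 6). The cause of these shifts was not tested. No scaling moved the median of all genes by over 0.1 on the log2 scale. No paired analysis was possible because old and young mice share no numbers; a block for mouse numbers (1 to 4 or 5 to 8) called 49 genes and none of the 71. Intervals exceed 2-fold for the dim Gpx5, Gpx6, Gstt4 and Txndc2 and for the bright Mt2, and stay within it for the dim Txndc8.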
